A study of Homo sapiens with 3 samples.

Results

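Integrins are the receptors that hold epithelial cells to the matrix below them. This account describes the 10 integrin subunit genes of epithelial cells, taken by gene symbol from the table of 58302 genes: the alpha subunits ITGA2, ITGA3, ITGA5, ITGA6 and ITGAV and the beta subunits ITGB1, ITGB4, ITGB5, ITGB6 and ITGB8. Each matched 1 row, and all 10 passed the filter on low counts. The 3 libraries hold RNA of HCT116 cells, a long-established line from a human colorectal carcinoma. Cells labelled si1 and si2 received small interfering RNAs (siRNAs) of different sequence and form the group described as low in DUOX2, an oxidase that makes hydrogen peroxide, and cells labelled NC received a control siRNA. No dose, time after transfection or passage is given in the labels. They do not tell separate cultures from repeats of one, so p-values measure only the spread between the siRNA 1 and siRNA 2 libraries, which may be technical.

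An integrin is a heterodimer of an alpha and a beta chain, both single-pass membrane proteins. The alpha chain largely sets which matrix protein is bound, and the tail of the beta chain binds talin and kindlin, which link the receptor to actin. ITGB1 is the common partner of many alpha chains. ITGB4 pairs with ITGA6 alone and joins laminin to keratin filaments in hemidesmosomes, while ITGAV pairs with ITGB1, ITGB5, ITGB6 or ITGB8 in receptors for vitronectin, fibronectin or latent TGF-beta. In the gut epithelium the laminin receptors anchor cells to the basement membrane.

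The siRNA guide strands are shown because they are what distinguished the libraries. Each is the antisense strand of the duplex in the labels, given 5′ to 3′ without its overhang, with the seed (bases 2 to 8) in capitals.
siRNA 1: aACCACUAuguuguccucc
siRNA 2: aUGAAGGAucgcaucaugg
NC siRNA: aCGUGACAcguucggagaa
A match to the siRNA 1 seed (TAGTGGT in the transcript) was present in the 3′ untranslated region of 1 of the 10 integrin transcripts, ITGA2, against 8.17% of 13076 tested genes. The siRNA 2 seed match (TCCTTCA) was in 5 of the 10, with 3 copies in ITGAV and 1 each in ITGA2, ITGA6, ITGB5 and ITGB8, against 16.3% of tested genes. For the NC seed match (TGTCACG) the count was 0 of the 10, against 3.04%. These untranslated regions had a median of 1873 bases in the integrins and 1279 bases in all tested genes, and were read on the sense strand of the longest coding transcript in GENCODE 29. Such a match is a description of the sequence only.

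The libraries held 19130768 counts with siRNA 1, 18832672 with siRNA 2 and 17589502 in NC. DUOX2 itself had 2, 0 and 2 counts in the same order, under the floor of 3 counts, so the target gave no check of the labels and a difference in it was not detectable at this depth. Of 10 colorectal epithelial markers, 8 were detected. KRT8 had 21957, 39987 and 31766 counts with siRNA 1, siRNA 2 and in NC, KRT18 had 19590, 27271 and 33521, and KRT19 had 6102, 8563 and 16482. EPCAM was higher with both siRNAs than in NC, at 12181, 11926 and 7646 counts, and CDX2 was lower, at 893, 1204 and 2001, while CDX1 and CEACAM5 were at 0 and KRT20 had at most 4 counts. The summed level of that list was 3458 CPM with siRNA 1, 4853 CPM with siRNA 2 and 5112 CPM in NC, where CPM (counts per library size in megareads) were scaled by TMM, a correction for library composition. The labels' extraction text speaks of retinas, yet 5 of 7 retinal markers (CRX, GNAT1, RPE65, OPN1SW and PDE6B) were at 0 and the list summed to between 0.582 and 0.881 CPM. Leukocyte markers summed to 32.9, 30.2 and 52.3 CPM with siRNA 1, siRNA 2 and in NC, with PTPRC at 0. CD74 held most of their counts, 550 of 597, 482 of 570 and 824 of 963 in the same order. Fibroblast markers summed to 2.42 to 3.64 CPM with DCN, LUM and COL1A2 at 0, and endothelial markers to 0.275 to 0.635 CPM with KDR, CDH5 and PECAM1 at 0. In bulk RNA, fewer cells of a type and less RNA per cell cannot be told apart, and the part of the lower epithelial sum with siRNA 1 in the integrin values was not tested.

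The level of each subunit was read from the deposited FPKM, which are counts divided by gene length in kilobases and by library size in megareads. ITGA6, the alpha chain of laminin receptors, was the most abundant of the 10 in every library, at 45.6 FPKM with siRNA 1, 43.1 with siRNA 2 and 40.1 in NC. ITGB5, a vitronectin receptor chain, had 26.5, 26.8 and 31.2 FPKM in the same order of libraries. ITGB1 had 36.5 FPKM with siRNA 1, 26.1 with siRNA 2 and 22.8 in NC, on this scale above ITGB5 with siRNA 1 alone. ITGB4 had 12.3 FPKM with siRNA 1, 16.8 with siRNA 2 and 28.4 in NC, so that on this scale it stood above ITGB1 in NC and below it with either siRNA. ITGA3, another laminin receptor chain, had 8.10, 11.2 and 20.8 FPKM with siRNA 1, siRNA 2 and in NC. ITGA2, the collagen-binding chain, stood at 11.8, 13.5 and 9.66 FPKM.

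ITGAV had 12.5 FPKM with siRNA 1, 8.56 with siRNA 2 and 8.72 in NC. ITGA5, which with ITGB1 forms the main fibronectin receptor, had 2.82, 3.59 and 5.33 FPKM. The TGF-beta activating chains were scarce: ITGB8 had 0.592, 0.433 and 0.519 FPKM and ITGB6 had 0.182, 0.197 and 0.155. Within a library, neighbours in this order lay apart beyond their 95% Poisson counting intervals except ITGAV, ITGB4 and ITGA2 in turn with siRNA 1, and ITGB5 and ITGB1 with siRNA 2. No molecular identifiers are recorded, so reads may repeat a molecule and all such intervals hold counting error only.

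These levels depend on the gene length behind them. That length equalled the sum of all distinct annotated exons, overlapping versions counted repeatedly, in 92.2% of 13597 genes. Among the integrins other than ITGB6 that sum ran from 1.14 times (ITGA2) to 1.77 times (ITGB1) the bases the exons cover. For ITGB6 the sum was 2.34 times those bases. Its 0.182 FPKM with siRNA 1 became 0.513 over the covered bases, more than that sum gives, so its length was another. Recomputed over the covered bases, a choice made after this was seen, ITGA6 had 75.2, 71.1 and 66.2 FPKM with siRNA 1, siRNA 2 and in NC, ITGB1 had 64.7, 46.2 and 40.3, and ITGB4 had 18.3, 25.05 and 42.3. The order in NC was the same but for ITGAV (14.4 FPKM), which then stood above ITGA2 (11.1). Over the longest transcript, ITGB1 (102.7 FPKM) stood above ITGA6 (87.5) with siRNA 1. With siRNA 2, ITGB1 stood above ITGB5 over the covered bases (46.2 against 38.2 FPKM) and over the longest transcript (73.4 against 56.4). In NC, ITGB4 stood below ITGB1 over the longest transcript (48.4 against 64.0 FPKM), the reverse of the other lengths.

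**Figure D1:**
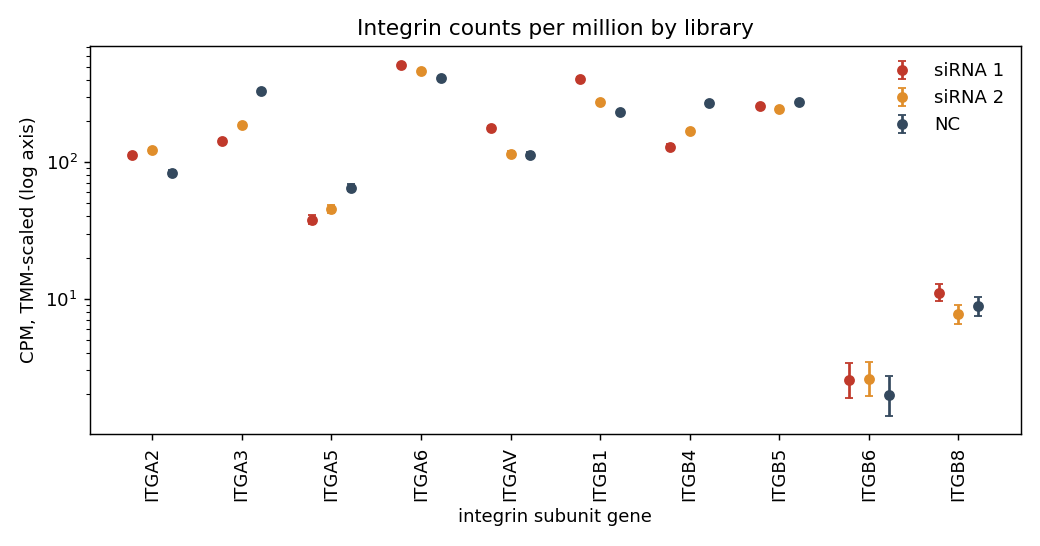
CPM after TMM scaling (log axis) of the 10 integrin genes in the siRNA 1, siRNA 2 and NC libraries, 1 library each, with 95% Poisson counting intervals as bars. ITGA3, ITGA5 and ITGB4 lie lower in both siRNA libraries than in NC, ITGA2, ITGA6 and ITGB1 lie higher, and ITGB6 is the lowest in all 3.

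The main comparison set the siRNA libraries, as 2 replicates, against NC. None of the 10 integrins passed edgeR's quasi-likelihood test after adjustment over 17263 genes, where 0.0579% of all genes passed, and their adjusted p-values ran from 0.116 to 0.882. An unadjusted edgeR p under 0.05 was reached by 3 of the 10 (ITGA3, ITGB4 and ITGA5), against 26.0% of all genes. All 3 were lower, against 14.5% of all genes with such a p and a lower level. DESeq2 called 1 of the 8 integrins to which it gave an adjusted p, ITGA3 at 0.0211, against 3.28% of all genes. That share is over all 17263 genes, including those without a DESeq2 adjusted p. With 3 of 10 beside 26.0%, the integrins were near the background, and the DESeq2 count rests on 1 gene.

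By direction, 5 of the 10 were higher with both siRNAs and 4 were lower with both, against 42.0% and 41.6% of all genes. Of the 5 higher, ITGAV with siRNA 2 (log2 fold change 0.03) and ITGB6 with both siRNAs lay within counting error of NC. ITGB8 alone differed in sign between the siRNAs. At least 1.5-fold lower with both were 2 of the 10, ITGA3 and ITGB4, against 15.5% of genes, and at least 1.5-fold higher with both were 0 of the 10, against 11.0%. No integrin was beyond 2-fold with both siRNAs in either direction, where 5.05% of genes were lower and 4.0% higher. The median log2 fold change of the 10 was 0.17, beside 0.01 for all genes tested. It was 0.33 with siRNA 1 alone and -0.06 with siRNA 2 alone, and -0.06 with an offset for the GC content of transcripts, so its sign rests on the siRNA 1 library. Both siRNA comparisons use the same NC library, so an error in that library enters both.

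Among the laminin receptor chains, ITGA3 (ENSG00000005884, chromosome 17, 50055968 to 50090481, GRCh38, plus strand) had 2591 counts with siRNA 1, 3528 with siRNA 2 and 6120 in NC. In CPM this was 143, 187 and 333, so both siRNA libraries lay below NC. Its log2 fold change was -1.01 ± 0.22 SE (edgeR adjusted p = 0.116), with -1.22 for siRNA 1 and -0.83 for siRNA 2 alone.

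ITGB4 (ENSG00000132470, chromosome 17, 75721328 to 75757818, plus strand) showed the same order, with 2363 counts with siRNA 1, 3189 with siRNA 2 and 5036 in NC. These were 130, 169 and 274 CPM, and the log2 fold change was -0.87 ± 0.22 SE (edgeR adjusted p = 0.126). ITGA6 (ENSG00000091409, chromosome 2, 172427354 to 172506282, plus strand), the partner of ITGB4, lay the other way, with 9403 and 8750 counts with siRNA 1 and siRNA 2 and 7602 in NC. Its CPM were 518, 463 and 413, for a log2 fold change of 0.25 ± 0.19 SE (edgeR adjusted p = 0.423). Antisense genes that overlap 5.37% of its exon bases had 0 counts, other than AC078883.1 with 28, 31 and 29.

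ITGB1 (ENSG00000150093, chromosome 10, 32900319 to 33005792, minus strand) had 7435 counts with siRNA 1, 5230 with siRNA 2 and 4261 in NC, which are 409, 277 and 232 CPM. The siRNA 1 library stood well above the others and siRNA 2 lay nearer to NC. The log2 fold change was 0.57 ± 0.28 SE (edgeR adjusted p = 0.250), made of 0.82 for siRNA 1 and 0.26 for siRNA 2.

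For the collagen receptor chain ITGA2 (ENSG00000164171, chromosome 5, 52989326 to 53094779, plus strand) the libraries held 2040 counts with siRNA 1, 2309 with siRNA 2 and 1538 in NC. At 112, 122 and 83.6 CPM the siRNA libraries lay close together and both above NC. Its log2 fold change was 0.49 ± 0.20 SE (edgeR adjusted p = 0.197).

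The fibronectin receptor chain ITGA5 (ENSG00000161638, chromosome 12, 54395261 to 54419460, minus strand) was lower in both siRNA libraries, at 687 and 862 counts, than in NC, at 1195. In CPM the libraries held 37.8, 45.6 and 64.9, and the log2 fold change was -0.64 ± 0.23 SE (edgeR adjusted p = 0.169).

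ITGAV (ENSG00000138448, chromosome 2, 186590065 to 186680901, plus strand) had 3243 counts with siRNA 1, 2187 with siRNA 2 and 2080 in NC, which are 179, 116 and 113 CPM. With siRNA 1 alone the level stood apart from NC beyond counting error: the log2 fold change was 0.66 there and 0.03 with siRNA 2, and that of siRNA 2 turned to -0.03 when libraries were scaled by total count. The joint value was 0.38 ± 0.30 SE (edgeR adjusted p = 0.437).

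Of the beta partners of ITGAV, ITGB5 (ENSG00000082781, chromosome 3, 124761948 to 124901418, minus strand) had 4672, 4643 and 5047 counts with siRNA 1, siRNA 2 and in NC. At 257, 246 and 274 CPM the libraries lay close together, with a log2 fold change of -0.13 ± 0.18 SE (edgeR adjusted p = 0.675). ITGB8 (ENSG00000105855, chromosome 7, 20330702 to 20415754, plus strand) had 201, 145 and 162 counts, or 11.1 (9.59 to 12.7), 7.67 (6.47 to 9.03) and 8.80 (7.50 to 10.3) CPM with 95% Poisson intervals. Its joint log2 fold change of 0.09 ± 0.34 SE turned to -0.02 under total count scaling (edgeR adjusted p = 0.882 as reported). ITGB6 (ENSG00000115221, chromosome 2, 160099666 to 160271888, minus strand) had 46, 49 and 36 counts, or 2.53 (1.85 to 3.38), 2.59 (1.92 to 3.43) and 1.96 (1.37 to 2.71) CPM, so the intervals overlapped and a difference was not detectable at this depth. ITGB6 is also uncertain because AC092153.1, which is not analysed here, covers 20.6% of its exon bases on the same strand.

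Counting error alone was small for the other members. The 95% exact binomial interval of the count ratio to NC held a ratio of 1 for 1 integrin with siRNA 1 (ITGB6) and for 3 with siRNA 2 (ITGAV, ITGB6 and ITGB8). The siRNA libraries differed from each other by as much as some differed from NC. The log2 level with siRNA 1 minus that with siRNA 2 was 0.62 for ITGAV, 0.56 for ITGB1 and 0.52 for ITGB8, against -0.39 for ITGA3, -0.38 for ITGB4 and -0.27 for ITGA5. The remaining 4 lay between -0.12 (ITGA2) and 0.16 (ITGA6). Of the genes whose transcripts hold a match to the siRNA 2 seed, ITGAV, ITGB8, ITGA6 and ITGB5 (0.07) lay above 0 in this difference. ITGA2, with a match to both siRNA seeds, lay below 0. Of those with a match to neither, ITGB1 lay above 0, at 0.56, while ITGA3, ITGB4, ITGA5 and ITGB6 lay below. ITGAV, ITGB1 and ITGB8 also have GC under 50% in their transcripts, and ITGA3, ITGB4 and ITGA5 have more. The part of the seeds or of GC content in these values was not tested. With 1 library for each siRNA these differences have no replicate.

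The split of the members followed the GC content of their transcripts. The 6 integrins with GC under 50% (ITGB8 at 37.8%, ITGAV at 38.3%, ITGB1 at 40.0%, ITGB6 at 40.1%, ITGA2 at 40.2% and ITGA6 at 42.9%) all had a joint log2 fold change above 0, from 0.09 to 0.57, though that of ITGB8 changes sign with the scaling. The 4 with higher GC (ITGB5 at 54.3%, ITGA5 at 54.5%, ITGA3 at 61.3% and ITGB4 at 63.7%) were all below 0, from -1.01 to -0.13. The same held across the table. Of 3482 genes in the GC range of the first group 87.1% had a joint value above 0, with a median of 0.43, and of 4395 genes in the range of the second 88.5% were below 0, with a median of -0.60. Over the 10 integrins, which share these libraries, Spearman's rho of fold change on GC content was -0.84 for siRNA 1 and -0.56 for siRNA 2, as a description. Over 17209 genes, which are not independent replicates, the same measure gave -0.68 and -0.64.

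**Figure D2:**
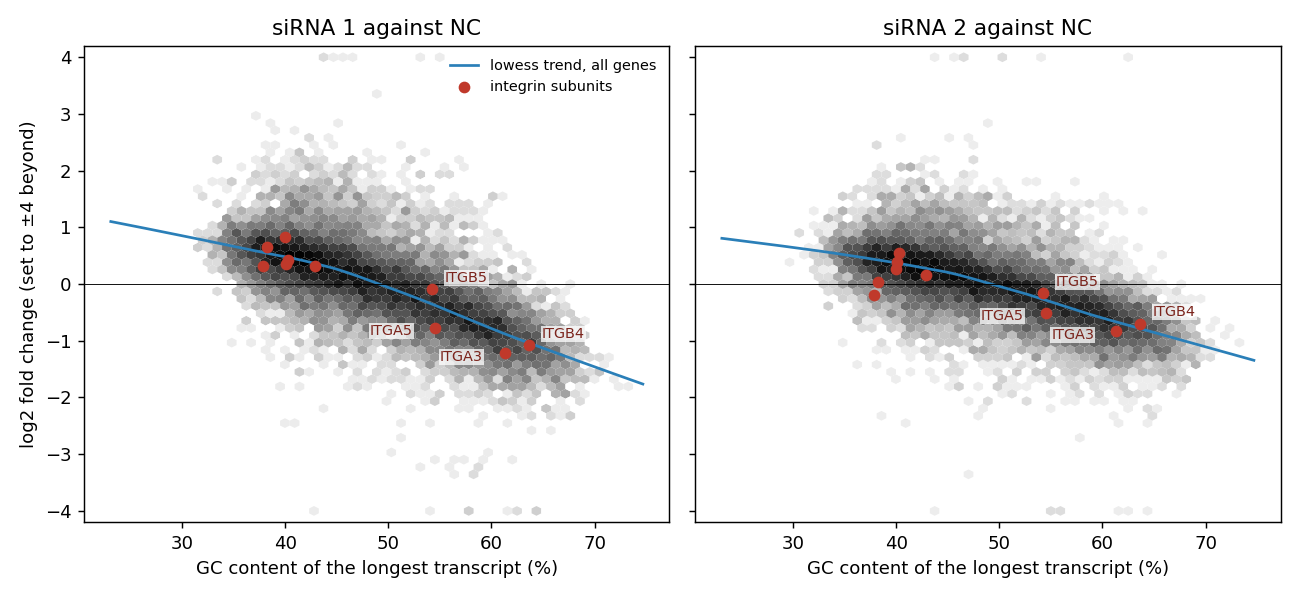
Log2 fold change against NC (vertical axis, values beyond 4 set to 4) by GC content of the longest transcript in percent for all tested genes (grey, darker where denser) with each siRNA. The blue line is the lowess trend and red points are the 10 integrins, of which those at 54.3% GC and above are named. ITGB4 and ITGA3, at 63.7% and 61.3% GC, lie near the falling trend.

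With the GC trend of all genes subtracted, the values of the GC-rich and the GC-poor integrins overlapped. ITGB4 moved to -0.03 with siRNA 1 and 0.09 with siRNA 2, and ITGA3 to -0.34 and -0.17. ITGA5 moved to -0.41 and -0.23, against -0.78 and -0.51 as measured, and ITGB5 turned to 0.26 and 0.11. Among the GC-poor genes ITGB1 had 0.34 and -0.12, ITGAV 0.12 and -0.39, ITGA2 -0.05 and 0.18, ITGA6 -0.04 and -0.11, ITGB6 -0.12 and 0.02, and ITGB8 -0.23 and -0.63. ITGAV and ITGB8 with siRNA 2, and ITGB5 with siRNA 1, lay farther from 0 than as measured. Lower with both siRNAs were then 4 of the 10 (ITGA3, ITGA5, ITGA6 and ITGB8), against 35.0% of all genes, and 1 was higher with both (ITGB5), against 37.4%. When the trend of each library entered edgeR as an offset, 0 of the 10 passed (0.0% of all genes did), the lowest adjusted edgeR p was 0.619, and 0 of the 10 had an unadjusted p under 0.05, against 10.1% of all genes. What sets the GC trend in these libraries was not tested.

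**Figure D3:**
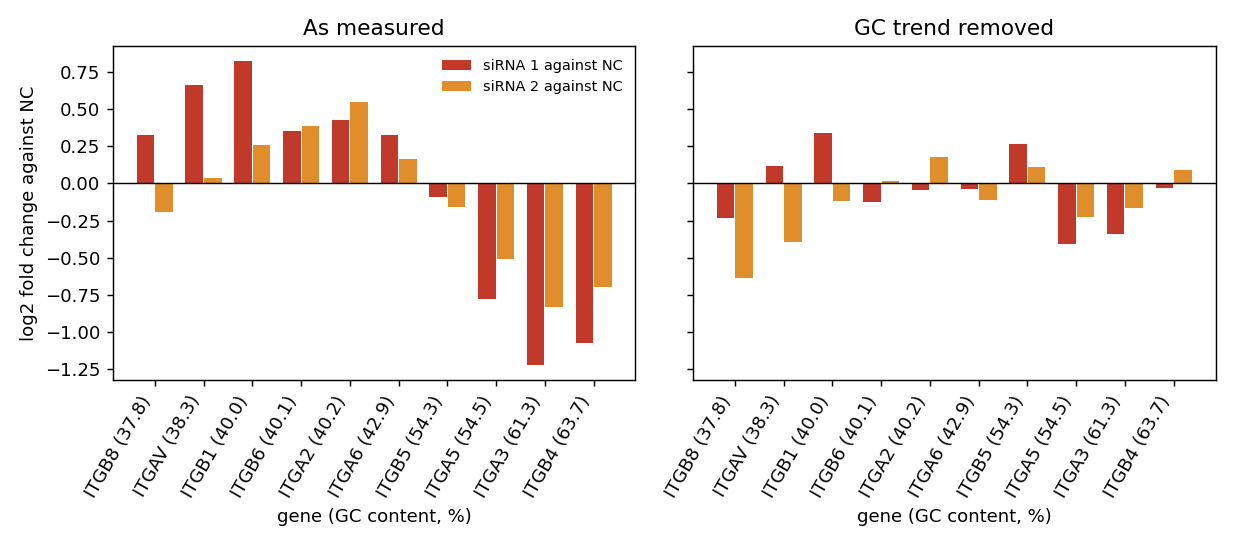
Log2 fold change against NC of each integrin with siRNA 1 and siRNA 2, ordered by GC content in percent, as measured (left) and with the GC trend of all genes subtracted (right). The step between ITGA6 at 42.9% GC and the genes above 54% GC on the left is absent on the right, where values lie between -0.63 and 0.34.

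Ratios between subunits of a library do not depend on its depth. The ratio of ITGB4 to ITGB1, by deposited FPKM, was 0.34 with siRNA 1, 0.64 with siRNA 2 and 1.25 in NC. Over the covered exon bases it was 0.28, 0.54 and 1.05, and over the longest transcript 0.20, 0.39 and 0.76, so in NC the gene length used decides which of the pair is higher. ITGB4 to ITGA6, the hemidesmosome pair, stood at 0.27, 0.39 and 0.71 by deposited FPKM, and ITGA3 to ITGA6 at 0.18, 0.26 and 0.52. ITGA5 to ITGAV was 0.23, 0.42 and 0.61. The pairs set a GC-rich gene over a GC-poor one. The log2 change of ITGB4 over ITGB1 was -1.89 with siRNA 1 and -0.95 with siRNA 2 as measured, and -0.37 and 0.21 with the GC trend removed. ITGB4 over ITGA6 gave -1.40 and -0.86 before the trend was taken out, and 0.01 and 0.20 once it was. ITGA3 over ITGA6 gave -1.55 and -0.997 as measured, and -0.30 and -0.05 without the trend. ITGA5 over ITGAV gave -1.44 and -0.54 as measured, and -0.52 and 0.17 without the trend. These ratios have no replicate in NC and were not tested.

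Summed over the covered bases, the 5 alpha chains held 127.9, 125.9 and 136.1 FPKM with siRNA 1, siRNA 2 and in NC, and the 5 beta chains 122.0, 110.5 and 128.2. ITGB1 made 53.0% of the beta sum with siRNA 1, 41.8% with siRNA 2 and 31.4% in NC. The share of ITGB4 was 15.0%, 22.7% and 33.0%, and that of ITGB5 was 31.0%, 34.6% and 34.7%. On the alpha side ITGA6 made 58.8%, 56.5% and 48.6%, and ITGA3 made 10.8%, 15.2% and 26.1%. ITGB6 and ITGB8 each made less than 1% of the beta sum in each library. The order of the sums between libraries depends on the scaling. When the deposited FPKM were scaled by TMM, the alpha sums were 85.1, 79.7 and 80.9 with siRNA 1, siRNA 2 and in NC. The beta sums were then 80.2, 70.1 and 79.4, so both were highest with siRNA 1 and not in NC.

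**Figure D4:**
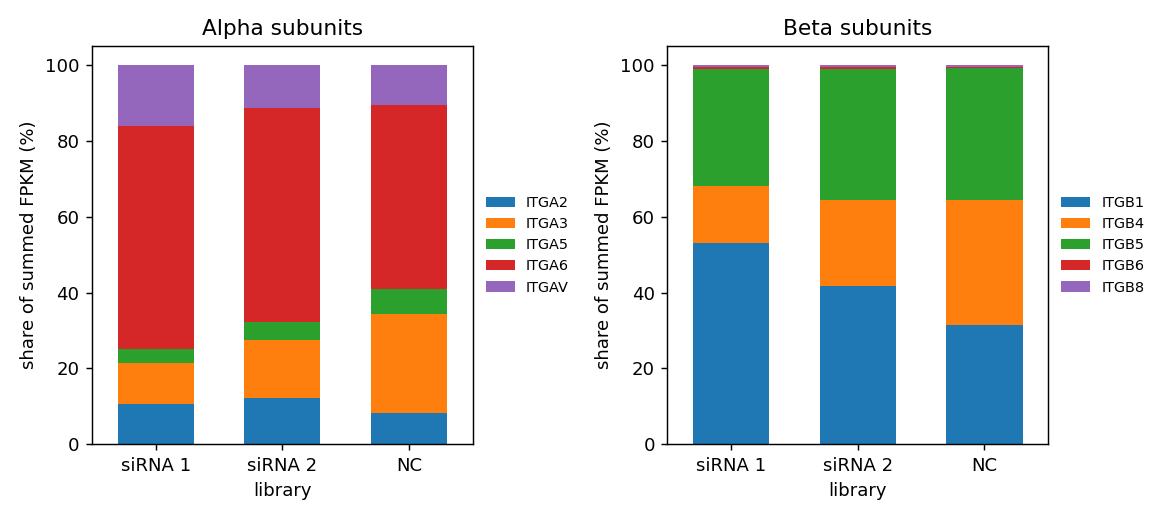
Share of each subunit in the summed FPKM (percent, over covered exon bases) of the 5 alpha genes (left) and the 5 beta genes (right) in the siRNA 1, siRNA 2 and NC libraries. ITGB1 takes 53.0% of the beta sum with siRNA 1, 41.8% with siRNA 2 and 31.4% in NC.

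Promoters of 8 of the 10 genes were found in the RefSeq table (GRCh38.p14), each from 250 bases before to 50 after a start that RefSeq annotates. For ITGB1 and ITGB6 that start lies inside the gene span given above, which the deposited table draws wider. ITGB1 has another, inner start in the RefSeq table that was not used. ITGB1 and ITGB6 are printed because they hold the most and the fewest CpG pairs of the 8. Capitals mark the GC box GGGCGG or its reverse complement.
ITGB1 (chr10:32958181-32958480, minus strand): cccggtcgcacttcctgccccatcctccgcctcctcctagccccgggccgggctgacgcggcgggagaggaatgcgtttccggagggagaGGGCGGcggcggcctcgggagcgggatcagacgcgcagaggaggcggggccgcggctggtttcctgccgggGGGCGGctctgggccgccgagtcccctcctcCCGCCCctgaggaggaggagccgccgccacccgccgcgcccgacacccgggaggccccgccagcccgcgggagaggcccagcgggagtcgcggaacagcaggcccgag
ITGB6 (chr2:160200223-160200522, minus strand): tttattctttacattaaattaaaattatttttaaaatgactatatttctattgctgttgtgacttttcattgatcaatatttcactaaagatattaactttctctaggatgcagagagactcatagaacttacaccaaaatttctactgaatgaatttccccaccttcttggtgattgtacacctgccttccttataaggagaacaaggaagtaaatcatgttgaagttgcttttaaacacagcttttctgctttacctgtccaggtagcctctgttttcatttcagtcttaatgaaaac
The ITGB1 window has 39 CpG pairs, 78.3% GC and 3 GC boxes, while that of ITGB6 has 0 CpG pairs, 31.7% GC and 0 GC boxes. The GC box was in 6 of the 8 promoters, against 45.0% of 35116 promoters on either strand. Those include promoters of genes not tested here. Promoters of tested genes had a higher median GC (64.7% against 58.7% for all), and their share with the box was not computed. The E-box CACGTG was in 1 of the 8 (ITGA6), against 7.26%, and the AP-1 letters TGANTCA in 1 (ITGA5), against 7.71%. Promoter and transcript composition differed: ITGB1 and ITGAV, with 40.0% and 38.3% GC in their transcripts, had promoters of 78.3% and 70.7% GC. A match describes letters in this window and no binding.

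By likeness of their 2 fold changes over 10964 protein-coding genes with at least 50 counts in every library, the genes nearest to ITGB1 were MYBL1, DERA and SGTB, at distances of 0.0138, 0.0156 and 0.0232 on the log2 scale. Nearest to ITGB4 were AGTRAP, AP2A1 and RPS15, at 0.00397, 0.00998 and 0.0103. As many as 56 genes lay within 0.1 of ITGB1 and 122 within 0.1 of ITGB4, so a likeness over 3 libraries singles out no gene. The 3 genes nearest to ITGB1 had 37.4%, 45.7% and 38.7% GC, while AGTRAP had 60.5% and AP2A1 62.1%.

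Of the remaining 16 integrin genes of the human set of 26, 8 passed the filter on low counts and 0 passed the test. An unadjusted edgeR p under 0.05 was reached by 3 of the 8, all lower, against 14.5% of all genes that were lower with such a p. These were ITGA7, ITGA2B (5, 2 and 17 counts with siRNA 1, siRNA 2 and in NC) and ITGB7 (2, 2 and 14). The filter kept ITGA2B and ITGB7 through NC alone, so their lower direction was fixed in advance and adds nothing to that count. ITGB7 also shares 42.1% of its exon bases with ZNF740 and is uncertain. The median log2 fold change of the 8 was -0.44 (-0.27 with the GC offset), with ITGA2B (-2.25) and ITGB7 (-2.74) included. The filter kept ITGA10 (8, 19 and 8 counts) through siRNA 2 alone and ITGAM (14, 8 and 9) through siRNA 1 alone. Under a stricter filter of 1 CPM the median turned to 0.0185, so its sign depended on the filter and gives no direction for this list. ITGA7, a laminin receptor chain best known from muscle, had 393 counts with siRNA 1, 437 with siRNA 2 and 815 in NC. Its log2 fold change of -0.98 ± 0.22 SE (edgeR adjusted p = 0.118) moved to -0.28 with the GC offset. ITGA1, a collagen receptor chain, had 828, 914 and 770 counts, and ITGAE, the chain that binds E-cadherin on lymphocytes, had 310, 314 and 305. ITGB2, the leukocyte chain, had 12, 42 and 50 counts, so siRNA 1 stood apart from the other libraries. ITGA4 and ITGAD were at 0 in every library. ITGB3, the platelet chain that also pairs with ITGAV, had 5, 0 and 2 counts.

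Proteins that act at the beta tail were set beside the receptors. Of 24 activators and adaptors, 0 passed the edgeR test and 10 had an unadjusted p under 0.05 (2 higher, 8 lower), against 26.0% of all genes. With both siRNAs 5 were higher and 18 lower, against 42.0% and 41.6% of all genes. The 18 include FERMT3 (3, 5 and 11 counts with siRNA 1, siRNA 2 and in NC). The filter kept FERMT3 through NC alone, so its lower direction was fixed in advance and adds nothing to that count. The median log2 fold change was -0.34, and -0.14 with the GC offset. LIMS1, the PINCH adaptor of integrin-linked kinase, had 11192 counts with siRNA 1, 6283 with siRNA 2 and 3973 in NC, and RAP1B, a small GTPase that activates integrins, had 3730, 3111 and 1758. SHARPIN, an inhibitor of integrin activation, had 164, 214 and 436 counts, and ZYX, the focal adhesion protein zyxin, 1318, 1467 and 3022. Their joint log2 fold changes of 1.14, 0.95, -1.22 and -1.13 moved to 0.73, 0.45, -0.13 and -0.14 with the GC offset.

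Among 15 tested genes of adhesion signalling 0 passed and 4 had an unadjusted edgeR p under 0.05, all lower, against 26.0% of all genes. With both siRNAs 5 were higher and 8 lower, against 42.0% and 41.6% of all genes. The median was -0.18 (-0.23 with the GC offset). SRC, the kinase, had 198, 311 and 610 counts with siRNA 1, siRNA 2 and in NC, and the scaffold BCAR1 had 443, 482 and 1170. Their joint values of -1.28 and -1.35 became -0.65 and -0.47 with the offset. PAK2, a kinase acting on actin, had 5725, 5601 and 4556 counts, and ARHGEF7, an exchange factor that binds PAK kinases, 2427, 1998 and 1869.

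Of 8 hemidesmosome and tetraspanin genes 0 passed, while 5 had an unadjusted edgeR p under 0.05 (1 higher, 4 lower), against 26.0% of all genes. With both siRNAs 4 were higher and 4 lower, against 42.0% and 41.6% of all genes. The 4 higher include COL17A1 (14, 9 and 6 counts with siRNA 1, siRNA 2 and in NC). The filter kept COL17A1 through siRNA 1 alone, so its higher level there was fixed in advance and adds nothing to that count. PLEC, the plakin that ties ITGB4 to keratin, had 7907 counts with siRNA 1, 11262 with siRNA 2 and 20908 in NC, a joint log2 fold change of -1.14 that moved to -0.05 with the GC offset. CD82, a tetraspanin, had 855, 890 and 1731 counts. CD9, a tetraspanin that associates with ITGB1 receptors, lay the other way at 24719, 20730 and 12177 counts. Its joint value of 0.89 ± 0.22 SE (edgeR adjusted p = 0.125) was 1.02 with the offset. CD63 had 4751, 4699 and 4079 counts. The median of the list, COL17A1 included, was -0.27 and turned to 0.12 with the GC offset. Under the filter of 1 CPM it was -0.70.

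For 18 tested matrix ligands 0 passed and 5 had an unadjusted edgeR p under 0.05, all lower, against 26.0% of all genes. With both siRNAs 2 were higher and 13 lower, against 42.0% and 41.6% of all genes. The median of -0.30 moved to -0.00493 with the GC offset. LAMA5, a laminin chain bound by ITGA3 and ITGA6 receptors, had 2356 counts with siRNA 1, 3052 with siRNA 2 and 6441 in NC, and COL18A1 had 642, 1045 and 2255. COL18A1 shares 16.4% of its exon bases with SLC19A1 and is uncertain. Their joint values of -1.27 and -1.43 moved to -0.20 and -0.34 with the offset. CTGF, a matricellular ligand, had 150, 163 and 142 counts, and NID1, the basement membrane linker nidogen, 957, 691 and 766.

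Of 13 tested genes of integrin traffic, 10 were higher with both siRNAs and 0 were lower with both, against 42.0% and 41.6% of all genes. The median was 0.40, and 0.21 with the GC offset. None passed the edgeR test, and 3 had an unadjusted p under 0.05, all higher, against 26.0% of all genes in either direction. RAB11A, the recycling GTPase, had 1486 counts with siRNA 1, 1215 with siRNA 2 and 722 in NC, and RAB4A, which shares 19.6% of its exon bases with SPHAR and is uncertain, 1032, 661 and 512. SNX17, which recycles ITGB1, had 894, 1058 and 1012 counts, and HAX1, which takes part in the uptake of ITGB6 receptors, 585, 714 and 643. Median transcript GC of this list was 42.7%, against 54.4% for the activators and adaptors and 48.5% for all tested genes. The lists are described by counts and medians alone, and the part of GC content in them was not tested beyond the offset.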

How the data were processed

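The deposited table gave raw read counts per gene and FPKM for the same 3 libraries. GRCh38 and mm8 are the builds, and Bowtie 0.12.2 a tool, that stand in the submitters' processing notes. How reads were counted, and whether by strand, is not given in the sources used here. Gene coordinates were those of GRCh38: 97.5% of 58039 genes found in GENCODE 29 had identical ones. The authors' FPKM matched, for 92.2% of 13597 genes, the count over the summed length of distinct exons and the column total. The total count was 17589502 to 19130768 per library.

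Counts were tested with edgeR 4.0.16 (R 4.3.3): TMM scaling, glmQLFit and glmQLFTest after filterByExpr (minimum count 10), Benjamini-Hochberg adjustment over 17263 genes, threshold 0.05 and 1 residual degree of freedom. A value for 1 siRNA is its log2 CPM (prior count 2) minus that of NC, with no test. GC content was taken from each gene's longest transcript in GENCODE 29, known for 99.4% of genes, and its trend came from lowess with a fraction of 0.3. Alternatives used DESeq2 1.42.0, limma 3.58.1 on log2 FPKM, other scalings and filters. bedtools 2.31.1 gave exon overlaps.

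The members and lists were chosen with earlier results of these data known. Named pathway genes are the 2 highest and 2 lowest by log2 fold change in each list with at least 50 counts in a library. Genes most like ITGB1 and ITGB4 are the 3 nearest by Euclidean distance in the log2 fold changes of both siRNAs. CCN1 and CCN2 were matched by their older symbols CYR61 and CTGF. Some marker genes are not reported here. Other genes named, such as ITGA4, ITGAD and ITGB3, were chosen after their values were seen.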

Additional observations from a re-analysis of the deposited data

How the results depend on the processing

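The count of genes called, 10 as reported, was 567 with DESeq2 and 0 with the GC offset, without a filter, under a filter of 1 CPM, and by limma on log2(FPKM + 1) or log2(FPKM + 0.1). Integrins past the test numbered 1 with DESeq2 (ITGA3) and 0 under the other alternatives that gave a test. Among protein-coding genes that share no exon bases only 4 of the 10 were tested. With the GC offset 6 integrins turned sign: ITGA6 (-0.0767), ITGAV (-0.12), ITGB4 (0.0283), ITGB5 (0.18), ITGB6 (-0.0352) and ITGB8 (-0.42). ITGB8 also turned under total count scaling (-0.0167), with limma (-0.00771 and -0.0262) and without siDUOX2 replicate 1 (-0.20, against 0.33 without replicate 2). With the trend subtracted per siRNA, 3 members were higher with siRNA 1 in place of 6. Signs then turned with siRNA 1 for ITGA2 (-0.0477), ITGA6 (-0.0379), ITGB5 (0.26), ITGB6 (-0.12) and ITGB8 (-0.23), and with siRNA 2 for ITGA6 (-0.11), ITGAV (-0.39), ITGB1 (-0.12), ITGB4 (0.0886) and ITGB5 (0.11). The median of all genes was -0.12 with siRNA 1 and -0.07 with siRNA 2 under total count scaling, against 0.02 and -0.01 under TMM.

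The ITGB4 to ITGB1 ratio with siRNA 1, with siRNA 2 and in NC was 0.20, 0.39 and 0.76 over the longest transcript and 0.28, 0.54 and 1.05 over covered bases. List medians with the GC offset were -0.14 for activators, 0.12 for hemidesmosome and tetraspanin genes, -0.00493 for ligands and 0.21 for traffic. Under the filter of 1 CPM the median of the other integrins turned to 0.0185, against -0.44 as reported, and that of the hemidesmosome list -0.70. Causes were not tested. No paired analysis was possible because the groups share fewer than 2 replicate numbers and NC has 1 library. NC's library cannot be left out, and the fits without a siRNA library have no residual degrees of freedom and give values alone. DESeq2 gave no adjusted p for ITGB6 and ITGB8.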
